A study of Mus musculus with 36 samples.

Results

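Immediate early genes are the first transcripts to rise when a cell meets a growth factor, an electrical or mechanical stimulus, or a stress. Their promoters are already occupied by transcription factors that signalling kinases can switch on, such as serum response factor and CREB, so that no new protein is needed, and their messages are short-lived. Most of their products are transcription factors or regulators of mRNA decay that shape the later response, and in solid tissues they are also known as transcripts that respond quickly to dissection. The 10 genes described here were picked out by symbol: the AP-1 subunits Fos, Fosb, Jun and Junb, the zinc finger factor Egr1, the stress-responsive bZIP factor Atf3, the orphan nuclear receptor Nr4a1, the nuclear protein Ier2, the antiproliferative CCR4-NOT partner Btg2, and Zfp36 (tristetraprolin), which destabilizes mRNAs with AU-rich elements. All 10 were found by Ensembl identifier in each of the 6 deposited count tables, among 54838 genes in the sperm table.

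All mice are labelled C57BL/6 wildtype (C57BL/6N in the study's methods). Males were given High Fat Diet (HFD, 60% of energy from fat) or Low Fat Diet (LFD, 10%) for 2 weeks from 6 weeks of age, and whether a father's short dietary exposure leaves a trace in his sperm and offspring was the question of the study. Cauda spermatozoa (swim-up, 3 HFD and 3 LFD libraries) came from the exposed males, and morulae (3 and 3 libraries) were made by in vitro fertilization with their sperm and picked after 72 h of culture. The 6 round spermatid libraries came from density-gradient preparations of testes of males on either diet, but their column names do not show which diet. Liver, epididymal white adipose tissue (eWAT) and gastrocnemius muscle (6 libraries each) are labelled HFD, glucose tolerant or intolerant; by the study's account they came from chow-fed offspring of HFD-fed fathers. Their column names are numbers that show neither status, so these libraries were compared between tissues only. Diet was therefore compared in sperm and morulae alone. Nothing in the labels says which libraries came from separate animals or pools, and p-values measure only the spread between these libraries, which may be technical.

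The libraries held 2560219–4062321 counts in sperm, 20138842–31056066 in round spermatids, 11471251–12153141 in morulae, 2036237–2552454 in liver, 1338149–4055537 in eWAT and 369772–2749920 in gastrocnemius, where library 4 was the shallowest. In every library of 5 tables the markers of the labelled cells or tissue had the highest sum of all marker lists: hepatocyte markers in liver, adipocyte markers in eWAT, muscle markers in gastrocnemius, spermatid markers in round spermatids and embryo markers in morulae. In sperm, 5 epididymal epithelium markers (Lcn5, Lcn8, Crisp1, Spink8 and Rnase10) summed to 2406–12422 CPM (a gene's counts scaled to a common library size), above the 294–2835 CPM of the spermatid markers. Mitochondrially encoded genes took 78.1–84.3% of the counts in the HFD sperm libraries and 43.5–64.7% in the LFD ones. CPM below are scaled by TMM, a factor per library that sets the bulk of genes level. In such bulk libraries, fewer cells of a type and less RNA per cell cannot be told apart.

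In the mouse assembly GRCm38, the build of the tables, the members lie as follows: Btg2 (chr1:134075170-134079120, minus strand) and Atf3 (chr1:191170296-191218039, minus) on chromosome 1, Jun (chr4:95049034-95052222, minus) on 4, Fosb (chr7:19302696-19310051, minus) and Zfp36 (chr7:28376784-28380253, minus) on 7, Ier2 (chr8:84661331-84662852, minus) and Junb (chr8:84974484-84978718, minus) on 8, Fos (chr12:85473890-85477273, plus) on 12, Nr4a1 (chr15:101254269-101274795, plus) on 15, and Egr1 on 18. The counts are exonic, untranslated parts included. Whether counting used strand is not given in the sources used here, and 3 members share exonic bases with a gene on the other strand: Junb shares 173 of its 2301 bases with Prdx2, an antioxidant enzyme gene, Jun shares 232 of 3189 bases with Junos, and Zfp36 shares 125 of 3470 bases with Gm44710. Prdx2 had up to 591 counts in an eWAT library. The morula table leaves out the part of Junb that meets Prdx2. Counts of these members are uncertain to that extent.

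RefSeq promoters (GRCm38.p6, 250 bases before to 50 bases from the start) were at hand for 8 members. They were searched on both strands for the cAMP response element CRE (TGACGTCA), the AP-1 element TRE (TGACTCA), the TATA box (TATAAA), the EGR site (GCGTGGGCG) and the CArG box bound by serum response factor. Of all 32851 promoters of this length, 1.79% held the CRE, 5.2% the TRE, 13.6% the TATA box, 0.612% the EGR site and 1.63% the CArG box. The 4 promoters shown are those in which a motif was found, with the match in capitals and each sequence read 5′ to 3′ on the gene's own strand.
Fos, plus strand, chr12:85473640-85473939, TATA box: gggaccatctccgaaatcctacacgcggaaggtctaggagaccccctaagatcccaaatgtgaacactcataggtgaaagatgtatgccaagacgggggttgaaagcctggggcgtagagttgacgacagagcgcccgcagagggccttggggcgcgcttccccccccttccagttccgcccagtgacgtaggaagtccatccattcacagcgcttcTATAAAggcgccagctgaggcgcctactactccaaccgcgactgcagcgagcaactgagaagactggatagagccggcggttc
Junb, minus strand, chr8:84978699-84978998, TATA box: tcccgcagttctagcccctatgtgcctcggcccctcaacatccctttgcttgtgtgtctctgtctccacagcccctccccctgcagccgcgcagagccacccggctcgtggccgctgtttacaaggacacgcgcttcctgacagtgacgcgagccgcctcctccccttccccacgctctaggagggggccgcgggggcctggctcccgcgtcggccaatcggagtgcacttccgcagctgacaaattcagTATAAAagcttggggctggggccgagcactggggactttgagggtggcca
Btg2, minus strand, chr1:134079106-134079405, CRE: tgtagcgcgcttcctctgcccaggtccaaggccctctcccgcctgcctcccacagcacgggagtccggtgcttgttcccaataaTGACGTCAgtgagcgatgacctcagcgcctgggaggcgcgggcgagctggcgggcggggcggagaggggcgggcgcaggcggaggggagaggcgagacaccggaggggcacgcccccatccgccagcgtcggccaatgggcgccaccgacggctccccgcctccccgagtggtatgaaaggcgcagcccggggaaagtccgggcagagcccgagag
Zfp36, minus strand, chr7:28379179-28379478, CArG box: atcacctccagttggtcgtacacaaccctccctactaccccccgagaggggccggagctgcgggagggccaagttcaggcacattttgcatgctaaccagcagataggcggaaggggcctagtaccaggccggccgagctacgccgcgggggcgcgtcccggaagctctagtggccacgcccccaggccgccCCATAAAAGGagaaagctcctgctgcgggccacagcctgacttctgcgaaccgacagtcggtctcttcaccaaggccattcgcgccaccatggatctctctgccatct
In Fos the TATA box runs from base -33 to -28, with 0 the first transcribed base. In Junb it starts at the RefSeq start itself, which lies upstream of the start in the count tables, and it runs from -30 to -25 of the latter. The CRE of Btg2 runs from -166 to -159 of the RefSeq start. The CArG box of Zfp36 runs from -58 to -49 of the RefSeq start, which lies inside the gene as the tables draw it. The windows of Fosb, Jun, Atf3 and Nr4a1 hold none of the 5 motifs in these exact letters, and none of the 8 windows holds the TRE or EGR letters. A match is a description of the letters and not a bound site. Motifs more than 250 bases upstream were not searched. A window without a match therefore does not show that the gene lacks the motif.

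**Figure D1:**
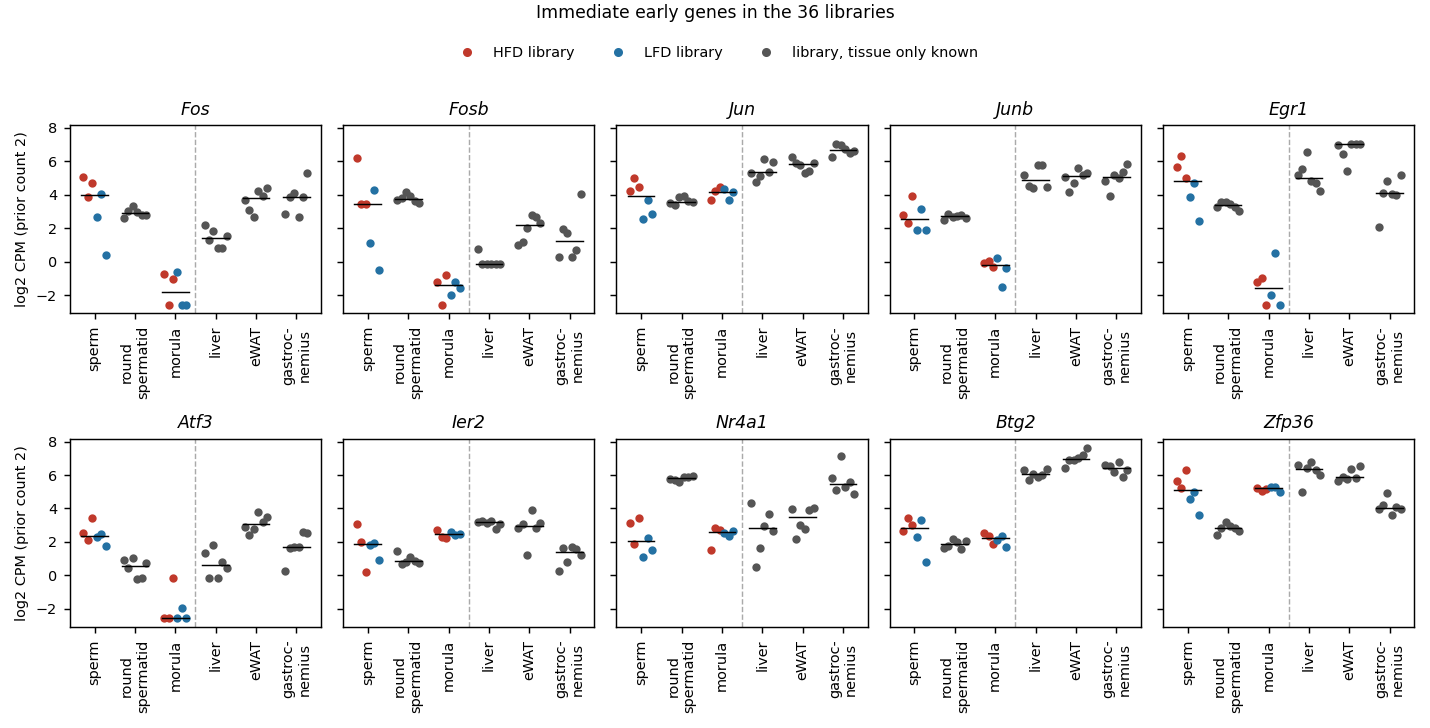
Level of each immediate early gene in each of the 36 libraries, as log2 CPM with a prior count of 2 (TMM within each table); bars are medians over the 6 libraries of a table, red points HFD and blue points LFD libraries. The dashed line parts the whole-transcript libraries on the left from the 3′-end libraries on the right, whose levels are not on a common scale with those on the left. In morulae Fos, Fosb, Junb, Egr1 and Atf3 reach at most 1.24 CPM, and in round spermatids the Nr4a1 points lie above those of the other 9 members, also per kilobase.

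In cauda spermatozoa every member was measured above the filter, and every member had a higher mean on HFD, although none passed the test (edgeR quasi-likelihood test, Benjamini-Hochberg adjustment over 8643 genes). Of all genes tested 0% were called higher and 0% lower, while 1122 had an unadjusted p under 0.05, 3 members among them. DESeq2 called 295 genes and limma-voom 0, with no member in either. The median log2 fold change of the 10 members was 1.37, beside -0.07 for all genes tested. This direction depended on the scale. It was the same with DESeq2 size factors (10 members higher, median log2 fold change 1.52), but not with library totals. With library totals as the scale the median log2 fold change was -1.82 for all genes and -0.39 for the members. Jun, Junb, Atf3, Ier2, Nr4a1, Btg2 and Zfp36 then changed sign, as drawn in the plot of diet effects. The members' median lay above that of all genes on both scales. A change of scale moves all genes of a library alike, so the second scale is no independent support.

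Egr1 showed the largest difference relative to its error. It reached 49.1, 79.1 and 31.3 CPM in the HFD libraries h1000, h3000 and h4000 and 14.02, 25.2 and 4.84 CPM in the LFD libraries l1000, l2000 and l4000. The diets did not overlap on the TMM scale, the log2 fold change was 1.86 ± 0.62 (SE, n = 3 and 3) and the adjusted p of the edgeR test was 0.258. Jun gave 18.1, 31.6 and 21.5 CPM on HFD and 5.20, 12.2 and 6.66 CPM on LFD. Its diets did not overlap either, with a log2 fold change of 1.57 ± 0.60 (SE) and an adjusted p of 0.287 by edgeR. Zfp36 was the third member without overlap, at 37.5–76.8 CPM on HFD and 11.5–30.7 CPM on LFD, with a log2 fold change of 1.33 and an adjusted p of 0.300 by edgeR. Thus 3 of 10 members had diets without overlap, where 20.4% of all genes tested had.

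Fos and Fosb, which dimerize with Jun proteins, had the widest ranges over the 6 libraries. Fosb gave 73.0, 10.3 and 10.4 CPM on HFD, and 1.58, 18.7 and 0.15 CPM on LFD, where the lowest value rests on 1 count. Its difference of 2.19 had a 95% interval from -0.26 to 4.64. Fos gave 32.3, 14.1 and 25.8 CPM on HFD and 5.88, 15.99 and 0.76 CPM on LFD, and the diets overlapped by one library. Library l4000 was the lowest of all 6 for 6 members, while l2000, with a mean deviation of 0.33 over the 10 members, lay near h3000 (0.41). The other 5 members, Junb, Atf3, Ier2, Nr4a1 and Btg2, lay between 0.61 and 14.7 CPM, with log2 fold changes of 0.61 to 1.42 and overlapping diets. Counts were low throughout: the sums over 6 libraries ran from 61 for Ier2 to 636 for Zfp36.

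Several marker sums of other cell types stood higher in the same HFD libraries on the TMM scale. The 5 erythroid markers summed to 259–484 CPM on HFD and 12.6–134 CPM on LFD, and the 6 leukocyte markers to 62.7–80.7 and 48.1–61.0 CPM, both without overlap. Per library total the leukocyte sums turned, to 27.7–52.4 CPM on HFD and 76.4–124 CPM on LFD, and the erythroid sums overlapped, at 124–250 and 32.4–204 CPM. Of the leukocyte list, S100a8 (chosen after its values were seen) went the other way on the TMM scale, at 15.9 CPM on HFD and 32.1 CPM on LFD. The 4 stromal markers summed to 106–349 CPM on HFD and 72.03–129 CPM on LFD. The 4 smooth muscle markers stood at 712 CPM in h3000, and at 1.29–30.9 CPM in the other 5 libraries. The spermatid markers summed to 933–2835 CPM on HFD and 294–1143 CPM on LFD, and the epididymal markers to 4409–4943 and 2406–12422 CPM. Per library total the epididymal sums were lower on HFD without overlap, at 1950–3537 CPM beside 3653–32063 CPM on LFD. On that scale the spermatid sums overlapped, at 526–1254 CPM on HFD and 760–1736 CPM on LFD. The stromal sums overlapped too, at 46.7–250 and 115–195 CPM. None of these markers passed the edgeR test singly, the smallest adjusted p being 0.234 for the erythroid list, and their part in the members' levels was not tested. Of the Sertoli and Leydig markers, which summed to 3.69–30.3 CPM, Amh and Insl3 were at 0 in all 6 sperm libraries.

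Of 37 other immediate early or rapid response genes, 21 were tested in sperm and 14 of them had positive, 7 negative log2 fold changes, with a median of 0.26 and none called. Pim1, a kinase induced by cytokines, had the smallest adjusted p of the list at 0.232 and stood at 64.2 CPM on HFD and 12.4 CPM on LFD on average. Sgk1, a kinase induced by serum and glucocorticoids, went the other way, at 18.4 and 43.6 CPM, with an adjusted p of 0.322 (both by edgeR, n = 3 and 3, and both chosen after their values were seen). The 16 upstream signalling genes, kinases of the MAP kinase cascade and the factors SRF, ELK and CREB they act on, had a median of 0.07 with 9 positive and 7 negative. The 11 tested heat shock genes had a median of -0.07, with 5 positive and 6 negative, and none of either list was called.

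In morulae 5 of the 10 members passed the filter on low counts, and none of them differed with the father's diet beyond the spread between libraries. Again 0% of the 13447 genes tested were called higher and 0% lower by edgeR, with 858 at an unadjusted p under 0.05 and no member among them. DESeq2 called 18 genes and limma-voom 0, again with no member. Zfp36, the most abundant member there, gave 37.5, 32.6 and 36.3 CPM in the HFD libraries MH5, MH6 and MH7 and 38.6, 38.0 and 30.9 CPM in the LFD libraries ML1, ML2 and ML3. The diets overlapped and the 95% interval of the log2 fold change ran from -0.32 to 0.30. Jun gave 12.7, 18.3 and 21.6 CPM on HFD and 20.4, 12.5 and 17.8 CPM on LFD, with an interval from -0.45 to 0.55. Nr4a1 was lowest in MH5 at 2.74 CPM and lay at 4.87–6.98 CPM in the other 5 libraries, Ier2 at 4.60–6.36 CPM and Btg2 at 3.09–5.56 CPM, each with overlapping diets and an edgeR adjusted p of at least 0.960. The diets overlapped for all 5 members tested, while they did not for 12.1% of all genes tested. None of the 31 other immediate early genes tested (17 positive, 14 negative, median 0.09), the 16 upstream genes (6 and 10, median -0.04) or the 12 heat shock genes (3 and 9, median -0.07) was called.

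The other 5 members were at or near 0 in morulae. Fos had 0–6 counts a library, Fosb 0–5, Atf3 0–9, Egr1 0–14 and Junb 2–12. Egr1 had 14 counts in ML2 (1.24 CPM) and at most 4 in the other 5 libraries, and Atf3 had 9 counts in MH7 (0.71 CPM) and at most 1 in the others. A count of 0 allows up to 3 counts of a library's total, which is 0.25–0.26 CPM here and covers counting error only. Of the 6 morula samples, 3 have a description that names the other diet than their title and treatment do, and the title was followed.

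**Figure D2:**
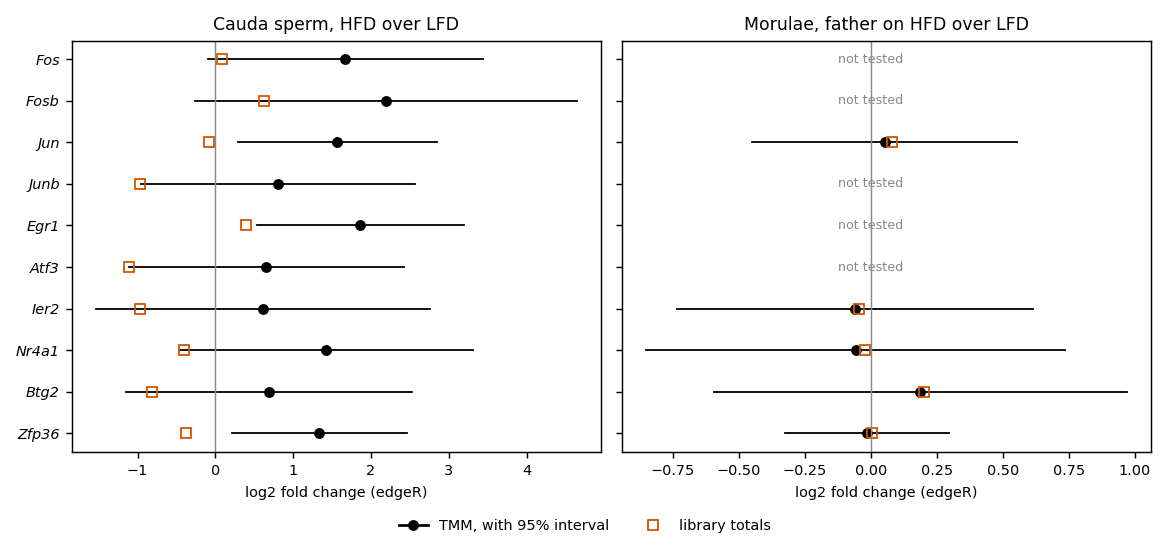
Difference between the diets for each immediate early gene in sperm (left) and morulae (right), as the log2 fold change of HFD over LFD, 3 libraries each; black points with 95% intervals use TMM scaling and open squares use library totals. In sperm the black points all lie above 0, from 0.61 to 2.19, while 7 of the 10 squares lie below it, and in morulae the points run from -0.06 to 0.19.

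Round spermatids held all 10 members above the filter. Per kilobase of exon, a scale on which genes can be compared in these whole-transcript libraries, Nr4a1 led with a median of 22.8 CPM per kb, followed by Jun at 3.75, Fos at 3.11, Junb at 2.80, Egr1 at 2.28, Fosb at 2.10 and Zfp36 at 2.04. Btg2, Ier2 and Atf3 were lower, at 1.33, 1.13 and 0.67. The lowest Nr4a1 library (19.4) lay above the highest of every other member, whereas neighbours from Jun down to Ier2 overlapped. Atf3 (0.36–0.94) lay below every Ier2 library. This table draws Nr4a1 with 2474 exonic bases, while the others draw it with 3509. In CPM, Nr4a1 ran from 48.0 to 60.7 with a median of 56.4, and its highest library exceeded its lowest by 1.26-fold. Atf3 ran from 0.78 to 2.02 CPM (22–51 counts), a 2.57-fold range and the widest of the 10. The others stayed within 1.78-fold. Library MUC14365 held the highest level of 6 members, Fos, Fosb, Egr1, Atf3, Btg2 and Zfp36, although the median of all genes in it stood at 0.01 on the log2 scale relative to their means.

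The order per kilobase differed between the whole-transcript tables. In sperm Zfp36 led at a median of 9.83 CPM per kb, before Fos at 6.40, Egr1 at 6.31 and Jun at 4.75, and Nr4a1 was last at 1.04. Neighbours in this order were not separated, since the library ranges of Zfp36, Fos, Egr1 and Jun overlapped. In morulae Zfp36 led too, at 10.6, before Jun at 5.65 and Ier2 at 3.49, while Nr4a1 and Btg2 were level at 1.68. Zfp36 lay above Jun in every morula library, and Jun above Btg2 in every one. Values of different tables were scaled separately and were not tested against each other.

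In liver the members stood far apart in how much they varied. Egr1, a factor induced by growth signals, gave 35.6, 44.7, 92.7, 27.2, 24.6 and 17.7 CPM in libraries 13, 14, 15, 16, 23 and 24. Library 15 was thus high and the range 5.23-fold. Nr4a1, which controls gluconeogenic genes in liver, gave 19.2, 0.51, 2.18, 6.91, 11.7 and 5.42 CPM in the same order, from 48 counts in library 13 to 1 count in library 14. Junb stood at 53.5 and 53.9 CPM in libraries 16 and 23, at 35.97 CPM in 13 and at 20.02–21.6 CPM in 14, 15 and 24. Zfp36 ran from 30.3 CPM in library 14 to 107.9 CPM in library 16, and Jun from 26.2 CPM in 14 to 69.5 CPM in 16. Library 14 was lowest for Jun, Nr4a1, Btg2 and Zfp36 but not for Egr1, where it was the second highest, so the members did not rise and fall together. Btg2 (51.4–81.7 CPM) and Ier2 (5.84–8.73 CPM) were the steady members, with ranges of 1.59- and 1.49-fold. Fos had 2–9 counts, Atf3 0–6 and Fosb 0–2.

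In eWAT most members were low in the same libraries. In 18 and 22, with 1338149 and 1744891 counts the shallowest, the mean deviation of the 8 members that passed the filter was -0.45 and -0.44 on the log2 scale, and in 27, with 4055537 counts the deepest, it was 0.48. Library 27 was above the median for 8 of 8 members and highest for 5, and the part of depth was not tested. Egr1 gave 126.0, 85.6, 42.6, 131.9, 131.9 and 132.4 CPM in libraries 17, 18, 22, 25, 26 and 27, so that 4 libraries lay close together and 22 was low. Fos gave 12.1, 7.78, 5.601, 17.96, 14.6 and 20.6 CPM in the same order, from 10 counts in 18 and 22 to 80 in 27. Nr4a1 ran from 3.89 CPM in 18 to 15.7 CPM in 27, Ier2 from 1.68 in 22 (3 counts) to 14.6 in 25, and Atf3 from 4.67 in 18 to 13.01 in 25. Jun went another way: it was highest in 17 at 75.3 CPM, lowest in 25 at 38.1 CPM, and 57.6 and 54.3 CPM in libraries 18 and 22. Btg2 ran from 85.8 to 196.4 CPM and Zfp36 from 49.3 to 90.5 CPM, both lowest in 17 and highest in 27. Markers of other tissues differed among these libraries as well: the erythroid sum ran from 3821 CPM in 17 to 14671 CPM in 27, the skeletal muscle sum from 36.5 CPM in 17 to 1259 CPM in 25, and the Sertoli and Leydig sum was 305 CPM in 17 and 14.4–22.4 CPM in the others. Their part in the members' levels was not tested.

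In gastrocnemius, library 9 carried the highest Fos and Fosb. Fos gave 5.91, 13.1, 16.04, 5.11, 13.2 and 38.1 CPM in libraries 4 to 9, on 2 counts in library 4 and 66 in library 9. Fosb had 27 counts in library 9 (15.6 CPM) and 0–7 in the others. Junb (56.0 CPM) and Egr1 (34.6 CPM) were highest in library 9 too, while Nr4a1 was lowest there at 27.7 CPM and highest in library 6 at 138.7 CPM, with library 4 next at 56.1 CPM. Egr1 had 1 count in library 4. Jun (73.9–126.8 CPM) and Btg2 (58.0–108.2 CPM) varied least of the members that passed the filter, by 1.72- and 1.87-fold. Zfp36 ran from 11.2 to 29.5 CPM, Atf3 had 0–11 counts and Ier2 0–5.

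**Figure D3:**
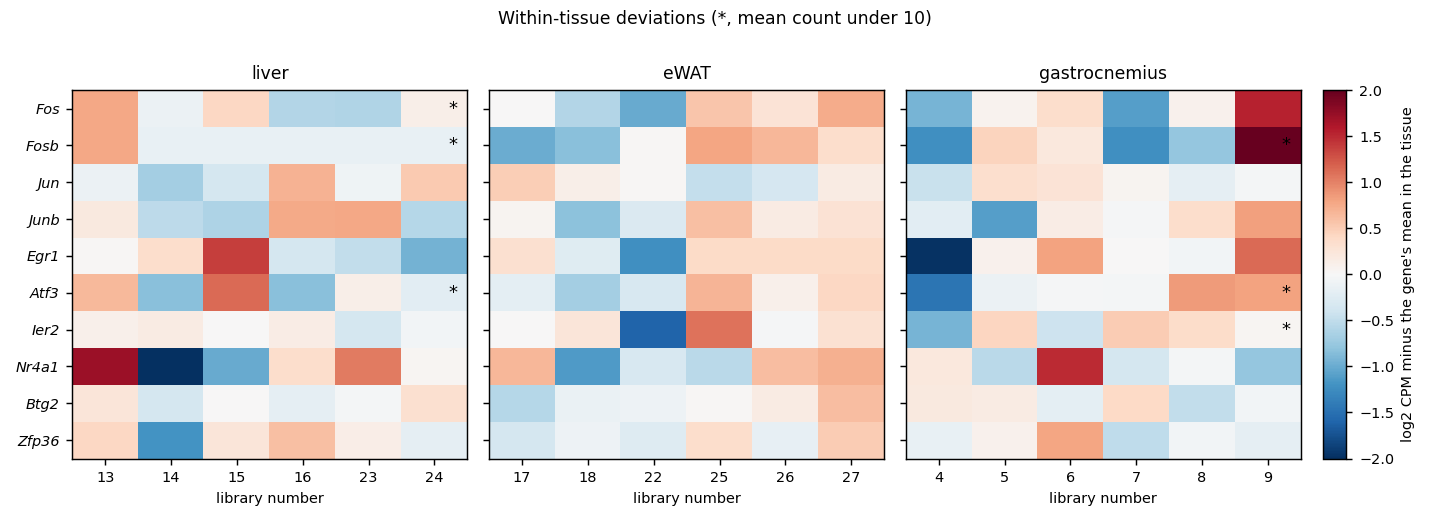
Deviation of each immediate early gene from its own mean in the tissue (log2 CPM, prior count 2, colour limited to 2 either way) in the 6 libraries each of liver, eWAT and gastrocnemius; asterisks mark genes with a mean count under 10. The red column of eWAT 27 and the blue one of eWAT 22 run over several genes. In gastrocnemius 9 Fos, Fosb, Junb and Egr1 are at their highest, while Nr4a1 is at its lowest. In liver Nr4a1 is highest in 13 and lowest in 14, where Jun, Btg2 and Zfp36 are lowest too.

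The spread of a member was set beside that of all genes of its table, as the percentile of its SD of log2 CPM between libraries (prior count 2, no test). Among genes that passed the filter, the median percentile of the members was 92.6 in liver (6 members), 78.0 in eWAT (8), 74.8 in round spermatids (10), 72.5 in gastrocnemius (5), 53.1 in sperm (10) and 51.4 in morulae (5). Within a diet the values were 51.5 for sperm and 56.3 for morulae. Round spermatids could not be split by diet, nor the offspring tissues by glucose tolerance. Their percentiles may therefore hold differences between these groups. A percentile is relative to the genes of its own table. The members' median SD itself was 0.96 in sperm, 0.58 in liver and 0.24 in round spermatids. For all genes that passed it was 0.93, 0.32 and 0.15 in the same order. Above the 75th percentile lay 4 of 6 members in liver, 5 of 8 in eWAT, 5 of 10 in round spermatids, 2 of 5 in gastrocnemius, 3 of 10 in sperm and none of 5 in morulae. This filter asks for enough counts in all 6 libraries of a tissue, which removes members that are low in a library. With a mean count of at least 10 instead, Nr4a1 in liver stood at percentile 99.7, Ier2 in eWAT at 91.1, and Egr1 and Fos in gastrocnemius at 96.2 and 95.3. Low counts add to an SD, and levels differ between members. Measured beyond counting noise, 4 of 6 liver members lay above the 75th percentile, and 8 of 10 in round spermatids.

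**Figure D4:**
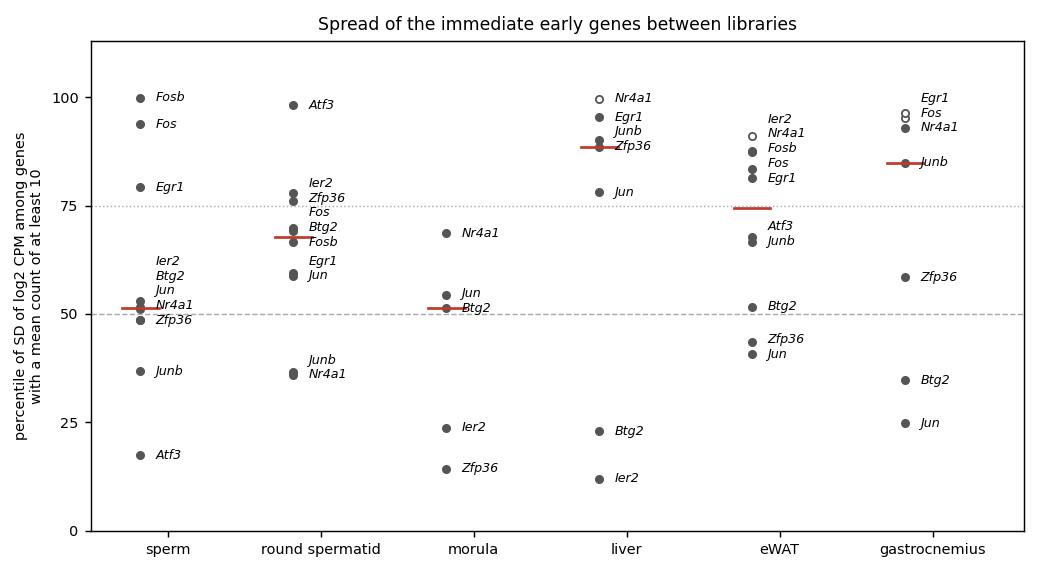
Percentile of each immediate early gene's SD of log2 CPM over 6 libraries among all genes of the table with a mean count of at least 10; filled points also passed the filter of the tests, open points did not, and red bars are the members' medians. Dashed and dotted lines mark the 50th and 75th percentiles, and gene names are stacked upwards where points are close. The liver median of 88.6 and the gastrocnemius median of 84.9 lie above those of sperm (51.4) and morulae (51.3), each relative to the genes of its own table.

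Among genes that passed the filter, the other immediate early genes had a median percentile of 79.1 in liver (13 genes), 66.4 in eWAT (23), 66.3 in gastrocnemius (16), 63.6 in round spermatids (32), 63.8 in sperm (21) and 58.6 in morulae (31). In liver the widest were Gadd45g (24.7–154.6 CPM), a growth arrest and DNA damage gene, Dusp1 (13.9–75.1 CPM), the phosphatase that switches off MAP kinases, and Klf2 (5.91–20.8 CPM), and the narrowest were Errfi1, Mcl1 and Rhob. In eWAT Gadd45g, Klf2 and Ier3 were widest and Mcl1, Klf6 and Plk2 narrowest. In gastrocnemius Pim1, Sgk1 and Klf10 were widest, and Mcl1, Klf6 and Ier5 narrowest. Mcl1, a survival factor of the BCL2 family, thus stayed within 1.49-fold in all 3 tissues. In round spermatids Dusp6, Gadd45g and Klf6 were widest and Klf2, Mcl1 and Klf4 narrowest. Dusp5, Ier3 and Gadd45g were widest and Klf4, Csrnp1 and Klf10 narrowest in morulae, and Gadd45g, Pim1 and Nr4a3 widest and Dusp6, Errfi1 and Zfp36l2 narrowest in sperm. Jund, an AP-1 subunit, was at 0 counts in every liver, gastrocnemius and sperm library and had at most 7 in any other; Gm11175 covers 877 of its 1668 exonic bases on the other strand.

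Heat shock genes, which answer protein damage, had median percentiles of 46.1 in liver, 67.3 in eWAT and 39.5 in gastrocnemius, and upstream signalling genes 62.5, 48.3 and 63.2. In liver library 15, where Egr1 peaked, the mean deviation of the 9 heat shock genes was 0.34 on the log2 scale, and in library 24, where Egr1 was lowest, it was 0.32. In gastrocnemius the highest heat shock mean, 0.47, was in library 4.

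The 3 tissues shared 1 kit, so the levels of 9 members (Fosb did not pass) were compared between them in 1 fit of 18 libraries over 10851 genes. On the joint TMM scale gastrocnemius stood out for Nr4a1, which exercise is known to induce in muscle, and Jun, and liver for Zfp36 and Ier2. In CPM of this joint scaling, Nr4a1 was 71.9 ± 55.2 (SD, n = 6) in gastrocnemius, 9.35 ± 8.34 in liver and 6.82 ± 3.50 in eWAT. Every gastrocnemius library lay above every library of the other tissues. Its log2 fold change was -2.91 ± 0.50 (SE) for liver over gastrocnemius (edgeR adjusted p = 2.23e-05) and -3.33 ± 0.49 for eWAT over gastrocnemius (adjusted p = 2.89e-06), while liver and eWAT did not differ beyond their spread (-0.42, adjusted p 0.504, 95% interval -1.49 to 0.65). Jun was 129.5 ± 30.6 in gastrocnemius, 55.1 ± 20.6 in liver and 35.3 ± 8.40 in eWAT, and each step passed the test. The step from liver to eWAT was lost without liver library 16 or 24 (log2 fold changes of -0.49 and -0.52, edgeR adjusted p 0.058 and 0.054).

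Zfp36 was highest in liver, 93.1 ± 32.4 CPM in liver, 42.0 ± 11.4 in eWAT and 21.9 ± 8.89 in gastrocnemius (SD, n = 6), with each step called, although on library totals the step from liver to eWAT was not (-0.24, edgeR adjusted p 0.376). Ier2 took the same order, at 9.61 ± 1.36, 4.88 ± 2.69 and 1.57 ± 1.04 CPM, and liver was 5.26-fold above gastrocnemius without overlap. The call of Ier2 in eWAT over liver (-0.94, edgeR adjusted p 0.017) was lost with no filter (-0.89, adjusted p 0.062), with library totals (-0.03, adjusted p 0.940) and without the shallowest pairs of libraries (-0.69, adjusted p 0.060). Fos was highest in gastrocnemius (19.5 ± 15.5), then eWAT (8.52 ± 3.88) and liver (2.34 ± 1.30). Its step from gastrocnemius to eWAT was lost without gastrocnemius library 9 (log2 fold change -0.76, edgeR adjusted p 0.071). The same step was lost on library totals (-0.28, edgeR adjusted p 0.492). Atf3 was 5.41 ± 2.07 in eWAT, 3.31 ± 2.38 in gastrocnemius and 1.13 ± 1.24 in liver. On this scale eWAT and gastrocnemius were not separated (95% interval of the log2 fold change -0.42 to 1.4998). On library totals Atf3 was called higher in eWAT than in gastrocnemius (1.49, edgeR adjusted p 0.0054). The call of Atf3 in liver over gastrocnemius (-1.66, adjusted p 0.019) was lost without gastrocnemius library 8 (-1.40, adjusted p 0.069) or 9 (-1.48, adjusted p 0.051). Egr1 was 70.4 ± 24.7 in eWAT, 49.6 ± 33.2 in liver and 23.7 ± 14.5 in gastrocnemius; eWAT over gastrocnemius was called (1.46, adjusted p 0.00188), and the call of liver over gastrocnemius (0.95, adjusted p 0.036) was lost when any of liver libraries 14 and 15 and gastrocnemius libraries 4, 5, 7 and 8 was left out, with values of 0.51 to 0.91. For eWAT over liver Egr1 gave 0.51 (edgeR adjusted p 0.216). It was called without liver library 15 (0.95, adjusted p 0.015) and on library totals (1.42, adjusted p 0.0011). Without the shallowest pairs of libraries Egr1 was called there too (0.81, edgeR adjusted p 0.046). Its call in liver over gastrocnemius was then lost (0.73, adjusted p 0.094). Junb gave 42.0 ± 19.4 in liver and 42.4 ± 18.6 in gastrocnemius (95% interval of the log2 fold change -0.69 to 0.61) and was lower in eWAT (21.01 ± 6.88), where on library totals neither difference was called (-0.06 over gastrocnemius and -0.07 over liver). The Junb call in eWAT over liver was also lost without the shallowest pairs of libraries (-0.73, edgeR adjusted p 0.069). The log2 fold changes of Btg2 lay between -0.35 and 0.07 and none was called, although eWAT over gastrocnemius was called without eWAT library 27 (-0.44, edgeR adjusted p 0.038). On library totals Btg2 was called the other way, higher in eWAT than in gastrocnemius (0.66, adjusted p 0.00227) and than in liver (0.98, adjusted p 3.91e-05).

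Counted over the 9 members tested, liver over gastrocnemius had 3 called higher and 4 lower, where 34.9% of all genes were called higher and 31.4% lower. In eWAT over gastrocnemius 3 were higher and 4 lower, against 41.1% and 26.3% of all genes, and in eWAT over liver 2 were higher and 4 lower, against 32.6% and 28.9%. These contrasts share their libraries and are given side by side. All statements on eWAT depend on its scale: joint TMM factors were 1.44–1.70 in eWAT, 0.759–0.847 in liver and 0.744–0.853 in gastrocnemius. With library totals the median of all genes moved to 1.32 for eWAT over gastrocnemius and 1.00 for eWAT over liver, the members' counts became 5 higher and 2 lower, and 4 higher and 0 lower, and Btg2 (eWAT over gastrocnemius), Jun and Nr4a1 (eWAT over liver) changed sign. Nr4a1 and Jun in gastrocnemius over eWAT kept their direction and call on both scales.

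**Figure D5:**
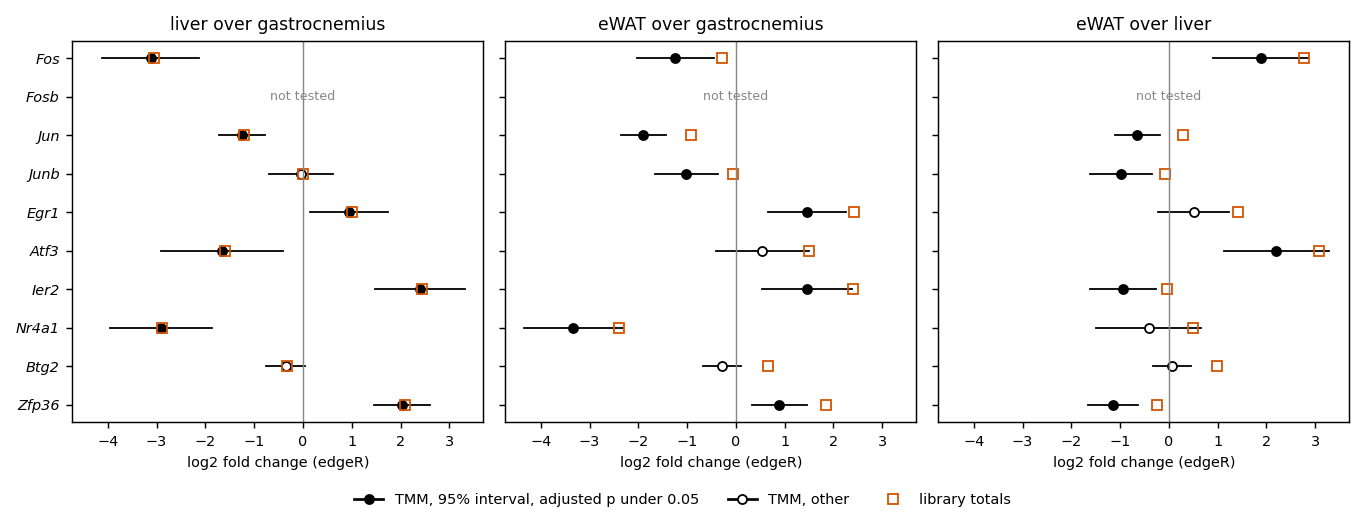
Log2 fold change of each immediate early gene between offspring tissues, 6 libraries each (edgeR, 1 fit); points with 95% intervals use joint TMM scaling, filled where the adjusted p is under 0.05, and open squares use library totals. The squares lie on the points in liver over gastrocnemius and to their right in both contrasts with eWAT.

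Of the other immediate early genes, 26 were tested in these contrasts. Liver over gastrocnemius had 4 higher and 16 lower, among the latter Klf4 at -4.01, Nr4a3 at -3.94 and Ier3 at -2.90, and Errfi1, an inhibitor of EGF receptor signalling, was the highest at 5.20. In eWAT over gastrocnemius 8 were higher and 7 lower, and in eWAT over liver 15 higher and 5 lower, from Errfi1 at -5.68 to Klf4 at 5.71. These genes were picked from the list after their values were seen. Upstream signalling genes (13 tested) had 0 higher and 6 lower in liver over gastrocnemius, 2 and 6 in eWAT over gastrocnemius, and 5 and 3 in eWAT over liver. Heat shock genes (12 tested) had 8 higher and 3 lower, 4 and 7, and 4 and 5 in the same order. Leukocyte, endothelial, stromal and erythroid markers were mostly higher in eWAT: over gastrocnemius 5 of 5, 4 of 4, 3 of 4 and 5 of 5 were called, and over liver 5 of 5, 3 of 4, 4 of 4 and 4 of 5. Their part in the members' levels was not tested.

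Likeness between genes was read from the 18 offspring libraries, each gene centred within its tissue, among 3956 genes that passed the filter in all 3 tissues. Only Jun, Junb, Btg2 and Zfp36 of the members are among them, so the profile is the mean of 4 genes. The 10 other genes most like it were Dusp1 (Pearson r 0.82), Tpi1 (0.82), Gm11410 (0.795), Cnih4 (0.78), Ldha (0.78), Mpp1 (0.77), Polr1d (0.76), Ssu72 (0.76), Trappc4 (0.75) and Magoh (0.74). Dusp1 kept its likeness in each tissue (0.90 in liver, 0.62 in eWAT and 0.81 in gastrocnemius), whereas Tpi1, a glycolytic enzyme gene, was at 0.17 in gastrocnemius and Trappc4 at -0.49. Of the 12 other immediate early genes among the 3956, Dusp1 alone had an r over 0.5, their median was 0.11 and Klf6 was lowest at -0.50. By tissue, Klf6 was at -0.86 in liver, 0.89 in eWAT and -0.38 in gastrocnemius. Over all genes the median r was 0.00 and 5.23% exceeded 0.5. Among the members, Zfp36 was most like the mean of the other 3 (0.56), and Jun, Junb and Btg2 were at 0.19, 0.17 and 0.05. The points share library depth and tissue composition.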

How the data were processed

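RNA was sequenced from sperm, round spermatids, morulae, liver, eWAT and gastrocnemius. The authors ran BBDuk for trimming, STAR (assembly GRCm38) for alignment and featureCounts for counting, and the deposited values are raw read counts. Tool versions and the strand setting are not given in the sources used here. Genes were kept with filterByExpr (minimum count 10), scaled by TMM within a table and tested by the edgeR quasi-likelihood test (edgeR 4.0.16, limma 3.58.1, DESeq2 1.42.0, R 4.3.3), with Benjamini-Hochberg adjustment over all genes kept and a threshold of 0.05. Diet was tested in sperm and morulae separately, with 3 libraries a diet, and tissues in 1 fit of 18 libraries. Spread is the SD of log2 CPM with a prior count of 2. Depth limits precision: a gene needs about 10 counts to pass, and a count of 0 allows 3.

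The members and all gene lists were chosen with earlier results of these data known. By rule, the text describes all 10 members, gives the other lists by counts, and names of the other immediate early genes the 3 with the smallest and the 3 with the largest spread, any that passed a diet test (none did), and the 10 genes most like the members' mean. Genes singled out of a list outside this rule were chosen after their values were seen. Alternatives were other scalings (DESeq2 size factors, library totals), nuclear genes only, no filter, DESeq2, limma-voom, a replicate block, other prior counts and count minimums, and leaving out each library. A mean count of at least 10 and leaving out the shallowest pairs of libraries were added after seeing the data. Calculations were tested on simulated data. Every pair of libraries compared within a table, in sperm and morulae within a diet, differed by more than sampling noise. Libraries whose columns show no diet or glucose tolerance were not compared within a tissue. Sequences and motif shares used RefSeq promoters of GRCm38.p6 (Python 3.11.15, matplotlib 3.10.9 for figures).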

Additional observations from a re-analysis of the deposited data

How the results depend on the processing

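In sperm and morulae no member was called under any other scaling, filter or tool, nor without any 1 library (0 to 0 called), apart from the replicate block given below. On library totals edgeR called 3266 of the 8643 genes in sperm. Library totals turned the sperm log2 fold changes of Jun (-0.084), Junb (-0.97), Atf3 (-1.11), Ier2 (-0.97), Nr4a1 (-0.41), Btg2 (-0.81) and Zfp36 (-0.37), Zfp36 in morulae (0.0055), Junb in liver over gastrocnemius (0.00852), Btg2 in eWAT over gastrocnemius (0.66), and Jun (0.29) and Nr4a1 (0.50) in eWAT over liver. Without a filter, Junb in liver over gastrocnemius was 0.025. With library totals 5 members were called higher and 2 lower in eWAT over gastrocnemius, and 4 higher and 0 lower in eWAT over liver, where leaving out the shallowest pairs of libraries left 2 lower. In sperm the libraries share only numbers, and h3000 and l2000 have no partner. A replicate block thus compared the diets within numbers 1000 and 4000 alone. It called 1 member, Fosb (5.61, edgeR adjusted p 0.0495), and 2 genes in all. That Fosb difference took nothing from l2000 (18.7 CPM) and rested on 1 count in l4000. Deviations of same-numbered libraries correlated at 0.11 (number 1000) and -0.15 (number 4000). No paired analysis was possible in morulae and the tissues because their columns share no numbers.

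Leaving out 1 library gave 2 to 3 members higher and 3 to 4 lower in liver over gastrocnemius, 3 to 3 and 3 to 5 in eWAT over gastrocnemius, and 2 to 3 and 3 to 4 in eWAT over liver. Uncalled values that changed sign ranged over -0.26 to 1.10 (Ier2, sperm), -0.13 to 0.23 (Jun), -0.22 to 0.024 (Ier2), -0.30 to 0.25 (Nr4a1) and -0.11 to 0.041 (Zfp36) in morulae, -0.23 to 0.17 (Junb, liver over gastrocnemius), and -0.63 to 0.11 (Nr4a1) and -0.0833 to 0.20 (Btg2) in eWAT over liver.

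The number of members above the 75th percentile of spread was 1 in sperm with library totals and 1 with a mean count of at least 50, 8 in round spermatids beyond counting noise and 3 with a mean count of at least 10, 2 in morulae and 2 in eWAT with a mean count of at least 50, and 4 in gastrocnemius with a mean count of at least 10. Without the shallowest pair of libraries it was 3 in eWAT and 5 in gastrocnemius. Leaving out 1 library gave 1 to 3 in sperm (1 without l4000), 2 to 6 in round spermatids (2 without MUC14365), 0 to 1 in morulae, 3 to 4 in liver, 3 to 5 in eWAT and 1 to 4 in gastrocnemius (4 without library 4, 1 without library 6). The cause was not tested. DESeq2 called 295 genes in sperm where edgeR called 0, and with no filter 41, and in morulae 18 and 63. With 369772 counts, gastrocnemius library 4 limits what can be said of low members there.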
